A study of Bos taurus with 6 samples.

Results

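The 10 genes described here encode proteins of the acrosome or of sperm binding to the zona pellucida, namely ACR, ACRV1, ACRBP, SPACA1, SPACA3, SPACA4, SPACA7, ZPBP, ZPBP2 and SPAM1. They were chosen by symbol and are 10 of the 47249 genes in the deposited table. RNA came from the testes of untreated Wandong cattle, a local Chinese breed of Bos taurus, with 3 immature calves aged 3 months and 3 andrologically mature bulls aged 3 years. The study compared the stages to describe testis development and sperm production. Each animal gave 1 library, made from total RNA after ribosomal RNA had been removed. Each level is given in FPKM, the fragments counted on a transcript relative to its length in kilobases and to the fragments of the whole library, so that levels can be set side by side between genes.

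The acrosome is a vesicle that forms from the Golgi apparatus of the round spermatid and spreads as a cap over the nucleus while the spermatid elongates. It holds proteases, a hyaluronidase and matrix proteins, and it opens by exocytosis near the egg. The zona pellucida is the glycoprotein coat of the egg, to which the sperm head binds and through which it passes. Genes of the acrosome are known as genes of meiotic and later germ cells, which the immature testis largely lacks. The samples are pieces of whole testis with somatic and germ cells together, so that fewer cells of a type and less RNA per cell cannot be told apart.

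The library labelled calf 3 stood apart from the other calves and was below 1 FPKM for most Sertoli and Leydig cell markers of its labelled tissue. Over the 18115 genes that reached 1 FPKM in 3 or more libraries, the Pearson correlation of log2(FPKM + 1) was 0.979 between calf 1 and calf 2, but 0.764 and 0.770 between calf 3 and these calves. All 6 Sertoli cell markers and all 5 Leydig cell markers were lower in calf 3 than in calf 1 and calf 2, and WT1, GATA4 and FSHR, which define Sertoli cells, were listed at 0 there. SOX9, another of the Sertoli cell markers, was at 13.7 FPKM in calf 3, against 9.99 to 10.8 FPKM in bulls. All 8 brain markers were highest in calf 3, where they summed to 13630 FPKM against 10.02 to 17.28 FPKM in the other 5 libraries. The main results that follow are therefore given with and without this library. Between 27164 and 38975 genes lay above 0 in a library. No read counts came with the values, so the depth behind single values is unknown and no counting interval could be given.

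All 10 genes were higher in the testes of mature bulls than of immature calves. The bull means ran from 22.1 FPKM for ZPBP2 to 117 FPKM for ZPBP. In calves, 6 of the genes stayed at or under 0.0738 FPKM in every library, while ZPBP, ZPBP2, SPACA1 and ACRBP reached 1 FPKM or more in at least 1 calf. Together the 10 genes summed to 9.76, 10.9 and 5.79 FPKM in calves 1 to 3 and to 561, 644 and 602 FPKM in bulls 1 to 3. A gene was called when limma on log2(FPKM + 1) gave a two-sided Benjamini-Hochberg adjusted p below 0.05 over all genes tested and the level differed by 1 or more on that scale. By this rule 10 of 10 genes were called higher in bulls, against 35.7% of all genes tested, and the lowest bull lay above the highest calf for 10 of 10, against 46.1% of all genes tested. ACR, ACRV1, SPACA3, SPACA4, SPACA7 and SPAM1 passed the filter through the bulls alone, and of the 3570 genes that did so 95% were called higher. Little can therefore be read from the call of these 6, and the filter itself put their lowest bull above their highest calf. Over the 9 genes not listed at 0 in all calves, the log2 fold change had a median of 5.18 and ran from 3.80 to 6.45, against a median of 0.43 over all genes tested. Of these 9, ACR, ACRV1, SPACA4, SPACA7 and SPAM1 passed through the bulls alone, so little can be read from the difference between the medians. None of the 10 was called lower, against 9.61% of all genes tested. Without calf 3, 10 of 10 were again called higher, against 37.9% of all genes tested. For each gene alone, the exact permutation test over the 6 libraries (two-sided) gave p = 0.1, the smallest that 3 libraries against 3 allow.

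**Figure D1:**
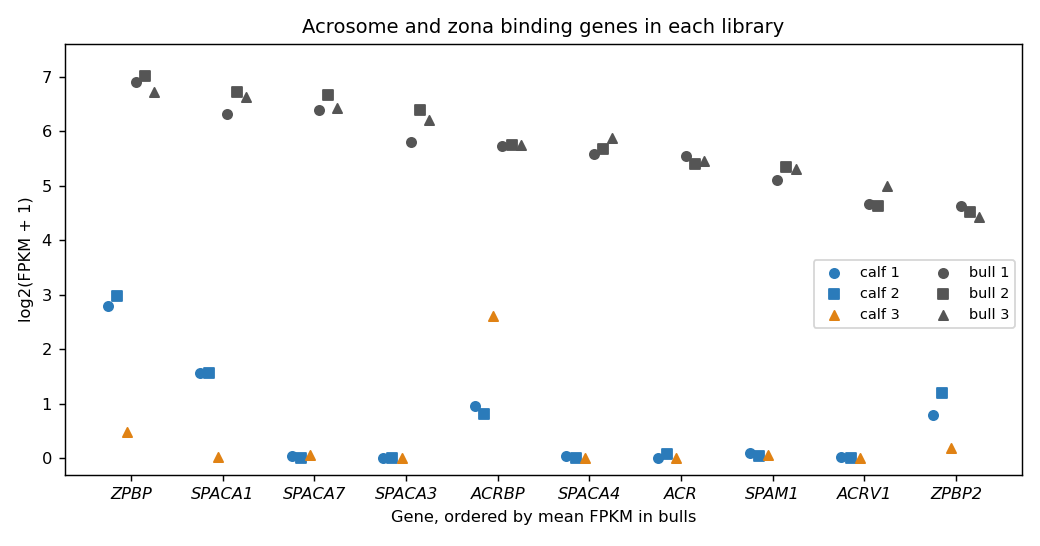
Level of each of the 10 genes in each of the 6 libraries, as log2(FPKM + 1), with the genes ordered by their mean in bulls. Points are libraries. For every gene the 3 bull points lie above the 3 calf points, and only ZPBP, ZPBP2, SPACA1 and ACRBP show calf points clearly above 0.

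The best known enzyme of the acrosome is acrosin, a trypsin-like protease encoded by ACR (ENSBTAG00000010182, chr5:120013292-120020697). This and the other positions are those of the deposited table, read as an ARS-UCD build of the cattle genome. ACR was listed at 0 in calf 1, at 0.0590 FPKM in calf 2 and at 0 in calf 3, and at 45.5, 41.1 and 42.6 FPKM in bulls 1 to 3. Its bulls differed little from each other (43.0 ± 2.26 FPKM, SD, n = 3), and no calf came near them. The log2 fold change was 5.43 (SE 0.15, limma adjusted p = 4.39e-06). ACRBP (ENSBTAG00000034246, chr5:103786617-103794308) encodes the protein that binds proacrosin, the precursor of acrosin, and takes part in its packing into the acrosome. ACRBP stood at 0.938, 0.757 and 5.15 FPKM in calves 1 to 3 and at 52.1, 52.6 and 52.9 FPKM in bulls 1 to 3. Of the 4 genes that reached 1 FPKM in a calf, only ACRBP was highest in calf 3 among calves, and its level there was 6.08 times the mean of calf 1 and calf 2. The groups did not overlap, and the log2 fold change was 4.28 (SE 0.49, limma adjusted p = 0.000631), or 4.86 without calf 3 (adjusted p = 7.30e-07). The 2 genes lie on the same chromosome but far apart. In bulls the level of ACRBP was 1.22 ± 0.0695 times that of ACR (SD, n = 3), whereas in calf 2, the single calf with ACR above 0, this ratio was 12.8.

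SPAM1 (ENSBTAG00000004640, chr4:88202846-88237924) encodes the sperm surface hyaluronidase also called PH-20, which helps sperm through the cumulus matrix around the egg. Its level was 0.0738, 0.0338 and 0.0401 FPKM in calves 1 to 3 and 33.3, 39.7 and 38.5 FPKM in bulls 1 to 3. All calves were thus above 0 but far below every bull, with a log2 fold change of 5.18 (SE 0.16, limma adjusted p = 5.58e-06). SPAM1 was the one gene among the 6 low in calves that was above 0 in all 3 calves.

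The zona pellucida binding proteins ZPBP and ZPBP2 sit in the acrosomal matrix and are paralogs. ZPBP (ENSBTAG00000005499, chr4:5809814-5961428) was at 5.96, 6.84 and 0.399 FPKM in calves 1 to 3 and at 119, 127 and 104 FPKM in bulls 1 to 3. It was the highest of the 10 genes in each bull and also in calf 1 and calf 2, yet in calf 3 it was exceeded by ACRBP. The log2 fold change was 4.79 (SE 0.67, limma adjusted p = 0.00145) and 3.99 without calf 3 (adjusted p = 2.14e-06), so that the wide error in the full comparison came with calf 3. ZPBP2 (ENSBTAG00000030523, chr19:40217187-40228624) was at 0.726, 1.303 and 0.137 FPKM in calves 1 to 3 and at 23.7, 22.1 and 20.6 FPKM in bulls 1 to 3. It was the lowest of the 10 genes in bulls, and its calves did not overlap its bulls. Its log2 fold change of 3.80 (SE 0.29, limma adjusted p = 0.000114) was 3.53 without calf 3 (adjusted p = 9.74e-06). The level of ZPBP was 5.01, 5.77 and 5.04 times that of ZPBP2 in bulls 1 to 3, and 8.21, 5.25 and 2.91 times in calves 1 to 3. The ratio was thus alike among bulls and spread more widely among calves, where the levels of ZPBP2 were near or below 1 FPKM.

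SPACA1, SPACA3, SPACA4 and SPACA7 are named as sperm acrosome associated proteins, but belong to unlike families. SPACA1 (ENSBTAG00000019469, chr9:61866903-61898398) encodes a protein of the acrosomal membrane needed in mice for the shape of the sperm head. It was at 1.98, 1.95 and 0.0175 FPKM in calves 1 to 3 and at 78.9, 104 and 97.5 FPKM in bulls 1 to 3. Calf 1 and calf 2 agreed closely and calf 3 was much lower, as for ZPBP. The log2 fold change was 5.50 (SE 0.45, limma adjusted p = 0.000158) and 4.99 without calf 3 (adjusted p = 1.53e-06). SPACA3 (ENSBTAG00000000344, chr19:17238257-17247945) encodes a lysozyme-like protein of the acrosome. It was listed at 0 in all 3 calves and at 54.7, 83.2 and 73.0 FPKM in bulls 1 to 3, and it is the only one of the 10 genes for which no fold change is given (limma adjusted p = 6.41e-06). Its bulls spread the most of the 10 genes, with a coefficient of variation of 20.6%.

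SPACA4 (ENSBTAG00000048127, chr18:55252155-55253024) encodes a small membrane-anchored protein of the sperm head needed for passage through the zona in mice. It was at 0.0295, 0 and 0 FPKM in calves 1 to 3 and at 47.0, 50.0 and 58.0 FPKM in bulls 1 to 3. The locus lies within the locus of FAM83E, whose level in bulls was 3.37 to 5.50 FPKM, and how shared fragments were divided is not given in the sources used here. The log2 fold change of SPACA4 was 5.70 (SE 0.16, limma adjusted p = 4.51e-06). SPACA7 (ENSBTAG00000054563, chr12:86167315-86183236) encodes a protein released from the acrosome. Its level was 0.0326, 0 and 0.0499 FPKM in calves 1 to 3 and 83.0, 100.01 and 84.5 FPKM in bulls 1 to 3. Its log2 fold change of 6.45 (SE 0.15, limma adjusted p = 3.19e-06) was the largest of the 9 genes with a fold change. ACRV1 (ENSBTAG00000033384, chr29:29060611-29067118) encodes SP-10, a spermatid antigen that gathers in the acrosome. It was at 0.0181, 0 and 0 FPKM in calves 1 to 3 and at 24.3, 23.8 and 30.7 FPKM in bulls 1 to 3, with a log2 fold change of 4.75 (SE 0.18, limma adjusted p = 9.48e-06). The groups of SPACA3, SPACA4, SPACA7 and ACRV1 did not overlap, which the filter had fixed, since each passed it through the bulls alone.

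**Figure D2:**
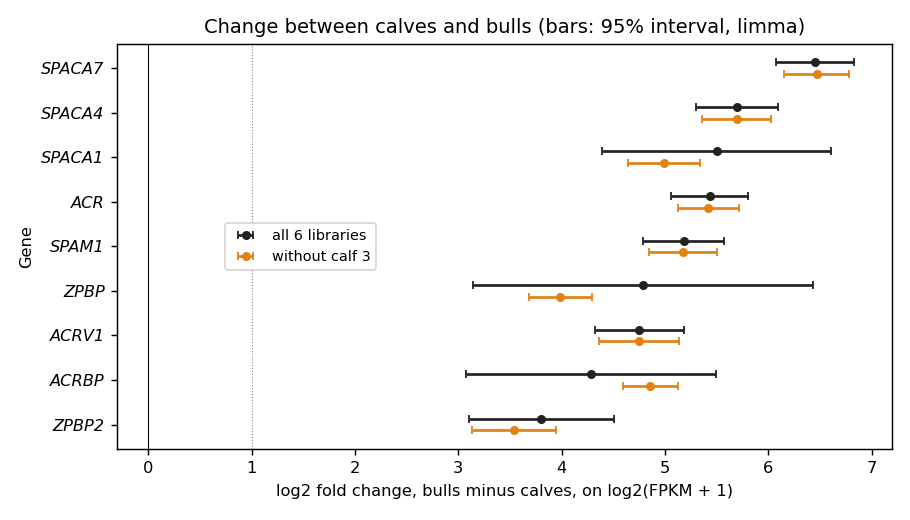
Log2 fold change of 9 of the 10 genes between bulls and calves on log2(FPKM + 1), with 95% intervals from limma, for all 6 libraries and without calf 3. SPACA3 is left out because it was listed at 0 in all calves. The intervals of ZPBP, SPACA1, ACRBP and ZPBP2 are narrower without calf 3 and every interval lies above the threshold of 1.

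The 95% intervals of the log2 fold change put ZPBP2 (3.099 to 4.508) below SPACA7 (6.07 to 6.83), ACR (5.06 to 5.81), SPACA4 (5.30 to 6.10) and SPAM1 (4.79 to 5.57). SPACA7, ACR, SPACA4 and SPAM1 passed the filter through the bulls alone and were near 0 in calves. Their fold changes on this scale therefore follow their bull levels, which were above that of ZPBP2, and little can be read from this order. No test between genes was run. The interval of ZPBP (3.14 to 6.44) covered most of the other estimates with all 6 libraries and narrowed to 3.68 to 4.29 without calf 3. The fold changes are on the log2(FPKM + 1) scale, which understates a change from a level far below 1 FPKM.

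By mean level in bulls, the genes ran in the order ZPBP (117 ± 11.9 FPKM), SPACA1 (93.5 ± 13.1), SPACA7 (89.2 ± 9.42), SPACA3 (70.3 ± 14.4), ACRBP (52.5 ± 0.367), SPACA4 (51.7 ± 5.67), ACR (43.0 ± 2.26), SPAM1 (37.1 ± 3.40), ACRV1 (26.3 ± 3.86) and ZPBP2 (22.1 ± 1.53), each the mean and SD of 3 bulls. Of the 9 pairs of neighbours in this order, 4 overlapped in their bull values. These were ZPBP with SPACA1, SPACA1 with SPACA7, SPACA7 with SPACA3, and ACRBP with SPACA4. Within single bulls, ZPBP was above SPACA1 and SPACA7 above SPACA3 in 3 of 3, while SPACA1 was above SPACA7 and ACRBP above SPACA4 in 2 of 3. The other 5 pairs did not overlap. By bull mean, ZPBP lay above 96.7% of all genes tested and ZPBP2, the lowest of the 10, above 78.3%. The coefficient of variation among bulls ran from 0.699% for ACRBP to 20.6% for SPACA3 with a median of 10.4%. Over the 3335 genes tested with a bull mean within the range of the 10 genes, the median was 9.05% and the quartiles 5.73% and 14.2%. A coefficient below that of ACRBP was found in 0.72% of those genes.

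The calf levels separated the 10 genes more than the bull levels did. In calf 1 and calf 2 the mean was 5.49% of the bull mean for ZPBP, 4.59% for ZPBP2, 2.1% for SPACA1 and 1.61% for ACRBP. The same share was 0.145% for SPAM1, 0.0685% for ACR, 0.0344% for ACRV1, 0.0286% for SPACA4 and 0.0183% for SPACA7, and SPACA3 was listed at 0. None of the 10 genes lay between 0.145% and 1.61%. Summed marker genes were read in the same libraries. The 5 spermatocyte markers (SYCP1, SYCP3, SPO11, HORMAD1 and SYCE3) summed to 12.0 and 19.1 FPKM in calf 1 and calf 2, or 5.997% of the bull mean, with single markers between 0.879% for SYCE3 and 35.3% for SYCP1. The 4 round spermatid markers summed to 0.696 and 0.167 FPKM, or 0.181% of the bull mean, with SUN5 and TXNDC2 at 0, TXNDC8 at 0.0971% and CATSPER3 at 1.56%, and the 7 elongating spermatid markers were at 0.00991%. Spermatogonial markers summed to 104 and 125 FPKM in calf 1 and calf 2 and to 104 to 112 FPKM in bulls. Single markers went different ways. ZBTB16 was called lower in bulls (14.9 and 10.2 FPKM in calf 1 and calf 2 against 2.71 to 3.16 FPKM). DMRT1, the largest part of these sums, was at 44.9 and 68.9 FPKM in calf 1 and calf 2, on average 73.5% of its bull mean. Sertoli cell markers summed to 1786 and 1456 FPKM in calf 1 and calf 2 and to 117 to 148 FPKM in bulls. The part of these cell types in the levels of the 10 genes was not tested.

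**Figure D3:**
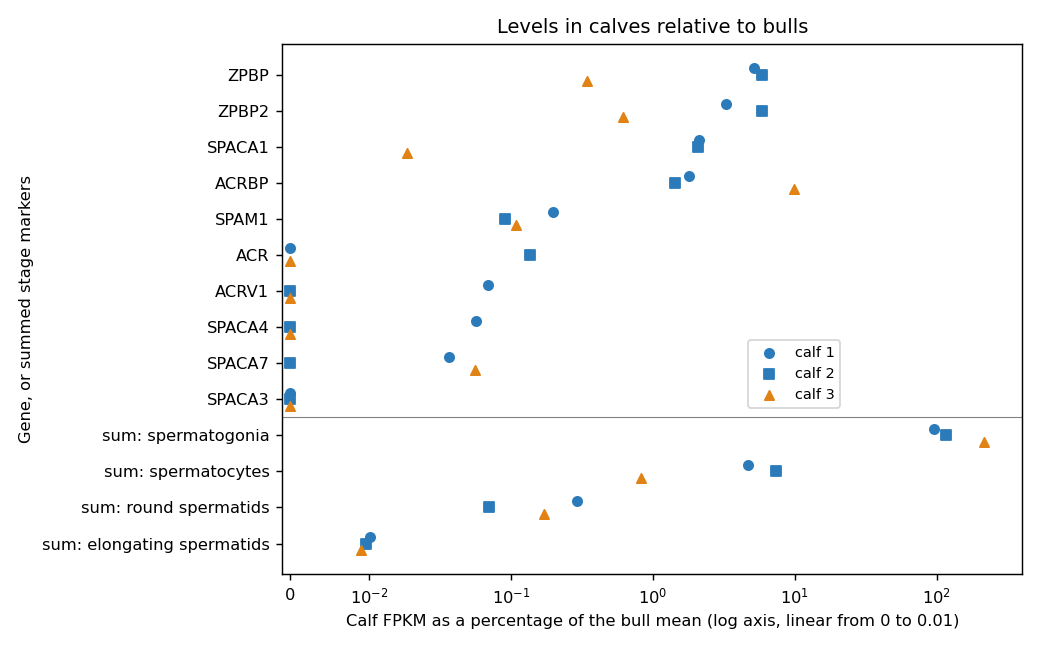
Level of each of the 10 genes in each calf, and the summed level of 4 sets of germ cell markers, as a percentage of the bull mean, on a log axis that is linear from 0 to 0.01. Points are calves. ZPBP, ZPBP2, SPACA1 and ACRBP lie at 1.44% to 5.89% in calf 1 and calf 2, the other genes at or below 0.199% in every calf, and ACRBP is at 9.81% in calf 3.

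In calf 3 the pattern of the 4 genes detected in the other calves was broken up. ACRBP was at 9.81% of the bull mean, ZPBP2 at 0.6198%, ZPBP at 0.343%, SPAM1 at 0.108%, SPACA7 at 0.0560% and SPACA1 at 0.0187%. ACR, ACRV1, SPACA3 and SPACA4 were listed at 0. ZPBP, ZPBP2 and SPACA1 were lower in calf 3 than in calf 1 and calf 2, and ACRBP was higher. The spermatogonial markers summed to 233 FPKM in calf 3, of which UCHL1 alone was 201 FPKM, while DMRT1 was at 0.0938 FPKM. The spermatocyte markers summed to 2.14 FPKM in calf 3, 0.822% of the bull mean, with SYCE3 at 0, and the brain markers were far above those of every other library. The part of these in the ACRBP level of calf 3 was not tested.

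The table of transcripts held 22 entries for the 10 genes. ACR, ACRBP, SPACA3, SPACA4 and SPACA7 each had 1 entry. Of the 22 entries, 13 passed the filter and all 13 were called higher in bulls, against 34.8% of the 23212 transcripts tested. However, 10 of the 13 passed the filter through the bulls alone, and 93.9% of all transcripts that did so were called higher, so little can be read from this count. SPACA1 was carried in bulls by 2 entries of nearly equal weight. The annotated SPACA1-201 was at 43.7, 65.0 and 52.6 FPKM in bulls 1 to 3 and listed at 0 in all calves, while the assembled TCONS_00370843 was at 35.3, 39.2 and 44.8 FPKM in bulls and at 0.539, 1.95 and 0.0175 FPKM in calves 1 to 3. The first made 57.3 ± 4.51% and the second 42.7 ± 4.51% of the gene in bulls (SD, n = 3). In calves all SPACA1 signal was thus on assembled entries, with 72.8% of it in calf 1 on TCONS_00370842, an entry listed at 0 in the 5 other libraries. The 2 assembled entries share their start, and how reads were divided between them is not given in the sources used here.

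ZPBP2 was carried in bulls by ZPBP2-202, with 70.3 ± 5.44% of the gene, and TCONS_00144890, with 18.4 ± 1.98%. In calf 1 and calf 2 the largest entry was instead TCONS_00144888, with 48.1% and 47.5% of the gene, and in calf 3 it was TCONS_00144891, with 80.4%. These calf shares rest on totals of 0.137 to 1.303 FPKM, and no test of the shares was made. ACRV1 was divided in bulls between ACRV1-201, at 79.3 ± 4.28% of the gene, and TCONS_00254416, at 20.7 ± 4.28%, which was listed at 0 in all calves. ZPBP-201 made 99.9% and SPAM1-201 made 99.1% of their genes in bulls. SPAM1-AS1, the entry named as antisense to SPAM1, was at 0.0845, 0.280 and 0.1995 FPKM in bulls 1 to 3 and listed at 0 in calves.

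**Figure D4:**
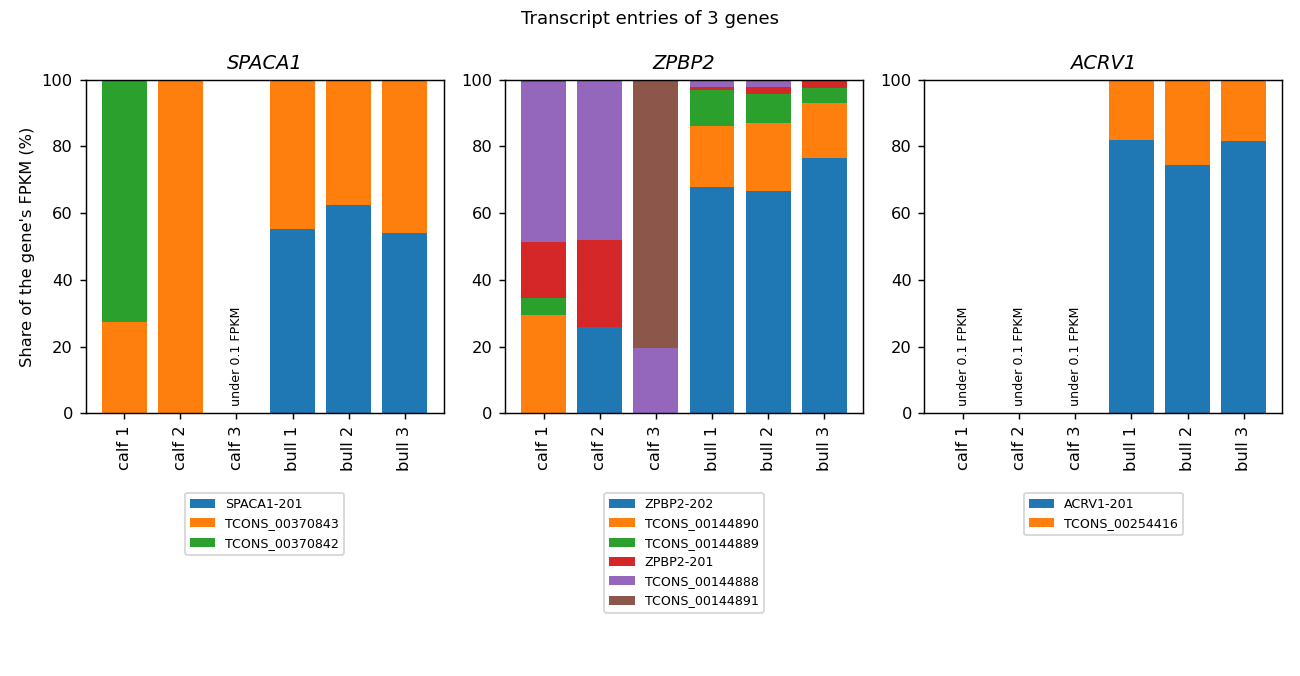
Share of the FPKM of SPACA1, ZPBP2 and ACRV1 held by each transcript entry in each of the 6 libraries, in percent. Libraries in which the gene was under 0.1 FPKM have no bar. The bulls share a common makeup, with SPACA1-201 at 57.3%, ZPBP2-202 at 70.3% and ACRV1-201 at 79.3% on average, and the calves that have a bar for SPACA1 or ZPBP2 differ from it.

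Genes that build the acrosome were read beside the 10 genes. Of 11 such genes, all were tested, 7 were called higher and 0 lower in bulls, against 35.7% higher and 9.61% lower of all genes tested. Their median log2 fold change with all 6 libraries was 1.91, against 0.43 over all genes tested. Without calf 3, 6 of the 11 were called higher, against 37.9% of all genes tested. The largest changes were those of SPATA16 and DPY19L2, whose loss is known to give round-headed sperm. SPATA16 was at 0.564, 0.634 and 0 FPKM in calves 1 to 3 and at 129, 139 and 114 FPKM in bulls 1 to 3 (log2 fold change 6.55). DPY19L2 was at 1.05, 1.58 and 0.133 FPKM in calves and at 126, 139 and 126 FPKM in bulls (6.17). The kinase gene HIPK4 was at 0.9848, 0.955 and 4.89 FPKM in calves and at 26.7, 23.3 and 27.8 FPKM in bulls (3.24). ATG7, which encodes an autophagy enzyme, followed at 2.12, PICK1 at 2.05 and AGFG1 at 1.91. HIPK4 was, like ACRBP, higher in calf 3 than in calf 1 and calf 2, by 5.04-fold over their mean, and PICK1 was so by 2.39-fold. CSNK2A2, a casein kinase subunit, had a log2 fold change of 1.05 with all libraries (adjusted p = 0.0221) and 0.78 without calf 3, and it was also not called without calf 1 (adjusted p = 0.0540), bull 1 (0.0839), bull 2 (0.0756) or bull 3 (0.0508). The 4 genes not called were TMF1 at 0.92, GOPC at 0.43, VPS54 at -0.05 and SMAP2 at -0.68 log2 fold change. SMAP2, which acts in vesicle traffic, was highest in calf 3 (23.5 FPKM against 7.44 to 9.70 FPKM in the other libraries).

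Among other contents of the acrosome and proteins of the zona binding surface, 16 of 18 genes listed by symbol were in the table, and SPINK2 and PRSS21 were not matched by symbol. Of the 16 genes, 15 were tested, and 12 were called higher and 0 lower in bulls, against 35.7% and 9.61% of all genes tested. With all 6 libraries, the median log2 fold change was 5.08 over the 14 tested that were not listed at 0 in all calves, against 0.43 over all genes tested. Without calf 3, 12 of the 15 were again called higher, against 37.9% of all genes tested. The filter was passed through the bulls alone by 10 of the 15, and 95% of all genes that did so were called higher. Little can therefore be read from the count called or from the median. CRISP2, a cysteine-rich secretory protein, had the highest level of the list, at 0.379, 0.481 and 0.0271 FPKM in calves 1 to 3 and 449, 470 and 516 FPKM in bulls 1 to 3 (log2 fold change 8.55). PRSS37, a relative of the serine proteases, was at 0.293, 0.401 and 0 FPKM in calves and at 182, 184 and 193 FPKM in bulls (7.26). SPESP1, a protein of the equatorial segment of the sperm head, followed at 6.76 and LYZL1 at 6.55. In all 4 genes the calves stayed below 1 FPKM. LYZL1, LYZL4, LYZL6 and SPACA5 are, like SPACA3, lysozyme-like. These 5 genes had bull means between 12.2 and 99.7 FPKM and no calf value above 0.199 FPKM, with SPACA5 at 0 in all calves (12.1, 12.8 and 11.8 FPKM in bulls).

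**Figure D5:**
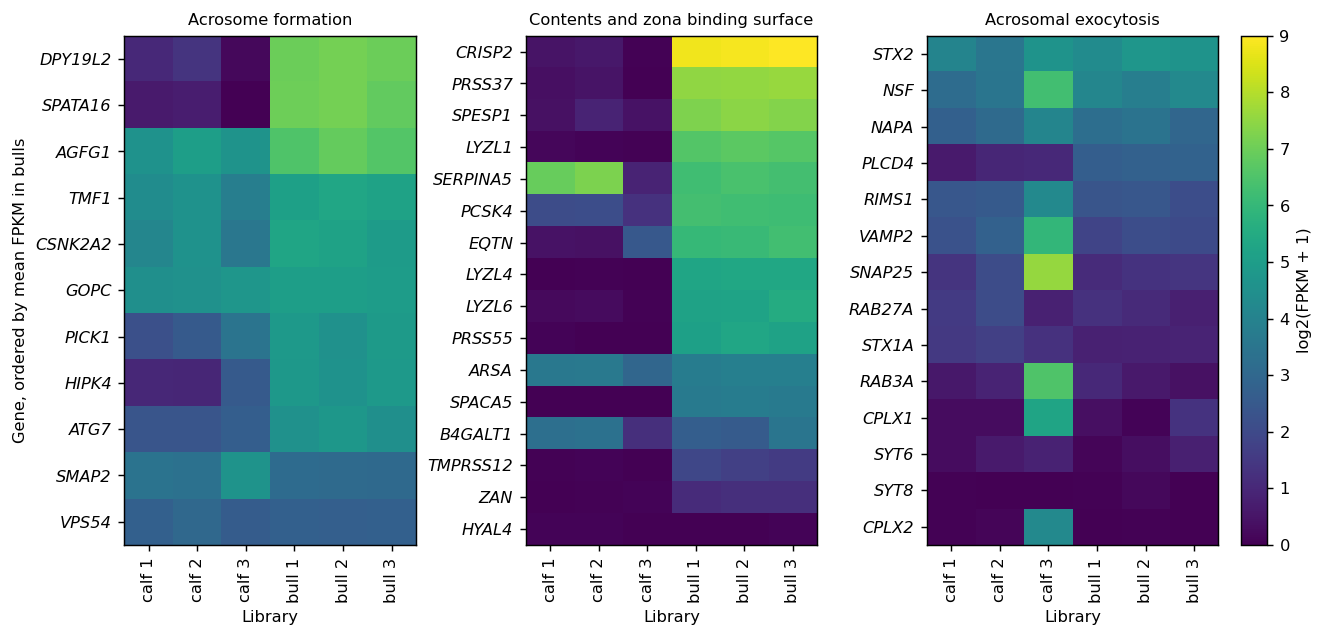
Levels of 3 lists of genes related to the acrosome in each library, as log2(FPKM + 1), with genes in rows and libraries in columns. Genes of the acrosomal contents list are mostly dark in calves and bright in bulls, whereas 9 of 14 exocytosis genes are brightest in calf 3.

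EQTN, an acrosomal membrane protein, was at 0.351, 0.324 and 4.57 FPKM in calves 1 to 3 and at 64.9, 67.3 and 76.6 FPKM in bulls. Like ACRBP, HIPK4 and PICK1, EQTN was higher in calf 3 than in the other calves. So were further genes of the related lists, among them SMAP2, ATG7 (5.49 FPKM against 4.13 and 4.21 FPKM) and GOPC (25.5 FPKM against 21.5 and 22.4 FPKM). The 3 genes not called were B4GALT1 (log2 fold change 0.30), ARSA (0.43) and SERPINA5 (1.304, limma adjusted p = 0.543). SERPINA5, a serpin that inhibits acrosin, was at 120, 149 and 0.864 FPKM in calves 1 to 3 and at 74.96, 84.3 and 77.8 FPKM in bulls. Calf 3 decided its sign, since the log2 fold change was -0.76 without it.

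Genes of acrosomal exocytosis, most of which also act in the synapse, were read in the same way. Of 14 genes, 9 were tested, 1 was called higher and 0 lower in bulls, against 35.7% and 9.61% of all genes tested. The gene called was PLCD4, a phospholipase, at 0.587, 0.974 and 1.05 FPKM in calves and 5.42, 5.90 and 6.15 FPKM in bulls (log2 fold change 1.88, limma adjusted p = 0.000245). Calf 3 was the highest library for 9 of the 14 genes, and for 5 of the 9 tested (55.6%) against 21.9% of all genes tested. SNAP25 reached 190 FPKM in calf 3 against 1.17 to 3.26 FPKM in the other libraries, and RAB3A 91.1 FPKM against 0.324 to 1.06 FPKM. These encode a membrane fusion protein and a vesicle GTPase of synapses and sperm. The other 7 were NSF (77.4 FPKM in calf 3), VAMP2 (60.8), CPLX1 (36.95), CPLX2 (17.7), RIMS1 (17.6), NAPA (15.9) and SYT6 (0.835). The same library had the highest brain markers, and the part of these in the exocytosis genes was not tested. With all 6 libraries, the median log2 fold change of the 9 tested was -0.44. Without calf 3, 1 of the 9 was again called higher, against 37.9% of all genes tested. The 5 tested genes highest in calf 3 then moved up in log2 fold change, which their choice by a high calf 3 had fixed. NSF was at 0.74 (-0.24 with all 6 libraries) and NAPA at 0.31 (-0.08). RIMS1 was at -0.18 (-0.76), SNAP25 at -0.46 (-2.41) and VAMP2 at -0.53 (-1.67). The difference between the lists was not tested.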

How the data were processed

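FPKM values of 47249 genes and 108527 transcripts in 6 libraries were deposited by the authors in 2 tables, without counts. According to the methods, reads were filtered, ribosomal reads were removed with Bowtie2, the others were mapped with TopHat2 and transcripts were assembled with StringTie. Cuffdiff and Ballgown are named for circRNAs. The source of the deposited FPKM values, and how fragments of overlapping genes were shared, are not given in the sources used here. The methods name the build UMD3.1.1, but 10 of 10 loci overlapped the locus of the same symbol in the RefSeq annotation of ARS-UCD2.0. Positions are printed as in the deposited table and are taken as those of an ARS-UCD build.

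On the scale log2(FPKM + 1), genes and transcripts that reached 1 FPKM in 3 or more of the 6 libraries were tested with limma 3.58.1 in R 4.3.3 (empirical Bayes with trend, two-sided, Benjamini-Hochberg over each table). Figures were drawn with matplotlib. Groups came from the sample titles. The limma p-values set the difference between calves and bulls against the spread of these samples within groups, moderated over all features tested. Calls took an adjusted p under 0.05 together with a difference of 1 or more on the log2 scale. The fit was tested on simulated data, where it recovered 51.5% of genes set to a log2 fold change of 2 and 82.5% at 4. A gene that was not called may therefore still differ. The members, the related lists, the markers and the tests were chosen with earlier results of these data known. Named were all 10 genes, and from each related list up to 4 called genes with the largest log2 fold change, those highest in calf 3 and those listed at 0 in all libraries. Further genes of these lists were named after their values were seen, with PICK1, AGFG1, STX1A, ZAN, VPS54, GOPC, TMF1, CSNK2A2, B4GALT1, ARSA, SERPINA5, EQTN, SPACA5, LYZL4 and LYZL6 among them. Markers of platelets, epididymis and red blood cells were read as summed levels, and of these ITGA2B and CRISP1 were also named singly. An item of the exocytosis list is not reported here. Sequences of promoters and proteins were not analysed here.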

Additional observations from a re-analysis of the deposited data

How the results depend on the processing

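The 10 genes were called higher in bulls in the comparison as reported and under all 15 alternatives, with a highest adjusted p of 0.00990 (ZPBP, without bull 2). As reported, 6 of them passed the filter through the bulls alone, so little can be read from their calls here either. Where libraries were left out, the filter had still been set on all 6 libraries. The alternatives were a pseudocount of 0.1, no filter, an FPKM filter of 5, FPKM rescaled to the same sum in each library, quantile normalization, no trend, array weights, a replicate block, each of the 6 libraries left out, and calf 3 and bull 3 left out together. Scaling moved the median log2 fold change of all genes tested from 0.43 to 0.63 with rescaled sums and to -0.13 with quantile normalization. Relative to that median, the 9 genes with a fold change ran from 3.37 to 6.02 as reported, 3.56 to 6.20 with rescaled sums and 3.30 to 6.08 with quantile normalization. Genes called higher and lower numbered 6474 and 1741 (78.8% higher) as reported and 4683 and 3917 (54.5% higher) with quantile normalization. With the filter of 5 FPKM, which tested 10883 genes, 5056 genes and 5368 transcripts were called. Leaving out 1 library at a time, 7318 to 9325 genes, 9039 to 11429 transcripts and 19 to 21 related genes were called, against 20 related genes as reported. CSNK2A2 was not called under 8 of 15 alternatives. TMF1 was called higher with rescaled sums (1.14) and without calf 2 (1.08). With quantile normalization, ZAN was not called (0.69) and SMAP2 was called lower (-1.19). STX1A was called lower with quantile normalization (-1.16) and a pseudocount of 0.1 (-1.06). The cause was not tested. Same-numbered calves and bulls correlated at 0.0277, 0.0246 and 0.0341, and differently numbered ones at -0.0487 to 0.0221. All of these lay near 0, and whether replicate numbers pair the samples was not tested. With the replicate block, 8128 genes were called against 8215, along with 10 of the 10 genes. Without counts, levels below about 0.1 FPKM cannot be placed against a counting floor.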

Other observations

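Loci within 5000 bases of the 10 genes were read as a description, chosen for position alone. FAM83E, which overlaps SPACA4, was at 0.0283, 0.0274 and 0 FPKM in calves 1 to 3 and at 3.37, 3.69 and 5.50 FPKM in bulls 1 to 3 (log2 fold change 2.33, limma adjusted p = 0.000125). SPATA48, which overlaps ZPBP, was at 0.721, 0.734 and 0.0328 FPKM in calves and at 4.199, 3.64 and 4.58 FPKM in bulls (1.82, limma adjusted p = 0.00121), and so was lower in calf 3 than in the other calves, as ZPBP was. XLOC_205608, an assembled locus that ends just before ACR, was at 0, 0.0442 and 0 FPKM in calves and at 1.57, 1.91 and 2.27 FPKM in bulls (1.52, limma adjusted p = 0.000135). XLOC_096047, next to SPACA3, was listed at 0 in all calves, as SPACA3 was, and stood at 0.839, 2.004 and 0.418 FPKM in bulls. FAM83E, SPATA48 and XLOC_205608 passed the filter through the bulls alone, and 95% of all genes that did so were called higher. Little can therefore be read from their adjusted p-values. How fragments were divided between overlapping loci was not tested.

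Not all neighbours were higher in bulls. ING4, next to ACRBP, was at 22.9, 20.2 and 11.5 FPKM in calves and at 18.7, 17.7 and 16.9 FPKM in bulls (log2 fold change 0.02). IKZF3, next to ZPBP2, was at 3.56, 3.59 and 0.855 FPKM in calves and at 2.93, 2.82 and 2.84 FPKM in bulls (0.19). LPAR5, also next to ACRBP, was at 0.639, 0.231 and 2.67 FPKM in calves and at 0.3002, 0.1105 and 0.0579 FPKM in bulls, and was highest, as ACRBP was among calves, in calf 3.

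The summed levels of markers of cells outside the seminiferous tubule were read for the same libraries. Platelet markers, 3 of 5 of which were in the table, summed to 1.42, 1.21 and 2.17 FPKM in calves 1 to 3 and to 22.0, 7.19 and 23.3 FPKM in bulls 1 to 3, nearly all of it ITGA2B. Red blood cell markers summed to 1.48, 1.40 and 3.58 FPKM in calves and to 1.26, 0.220 and 0.418 FPKM in bulls. CRISP1, the only one of 5 epididymis markers matched by symbol, was at 0.0486 FPKM in calf 1, 0 in calf 2 and calf 3, and 0.355, 1.47 and 0.267 FPKM in bulls.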
